A study of Mus musculus with 36 samples.

Results

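The levels of 10 genes of cholinergic neurons and of the cells that respond to them were followed across brainstem, hypothalamus and cortex of mice with and without orexin. They were Chat, Slc5a7, Ache, Chrm1, Chrm2, Chrm3, Chrm4, Chrna4, Chrna7 and Chrnb2. They were chosen by symbol, and each was matched through the GENCODE M21 annotation to a single Ensembl identifier, so that 10 of the 38924 genes counted were taken. The series holds 36 libraries of poly(A)-selected RNA from C57BL/6 mice, in 12 groups of 3 libraries made by crossing 3 tissues with 4 genotypes. The first genotype is Hcrt/Orexin-ataxin-3 transgenic, a line in which the orexin promoter drives a toxic fragment of ataxin-3 in orexin neurons, and it is set against Hcrt/Orexin-ataxin-3 wildtype. The next is Hcrt/Orexin knockout, which lacks the peptide precursor while the neurons that would make it remain, and is set against Hcrt/Orexin wildtype. The labels give no age, sex or further treatment, and they do not say whether the libraries of a group came from separate animals, so the p-values below measure the spread between these libraries.

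Cholinergic neurons make acetylcholine with choline acetyltransferase (Chat), take choline back up with a high-affinity transporter (Slc5a7), and lose the released transmitter to acetylcholinesterase (Ache). Muscarinic receptors are G protein-coupled: Chrm1 and Chrm3 act mainly through Gq, and Chrm2 and Chrm4 through Gi/o. Nicotinic receptors are cation channels of 5 subunits, of which the Chrna4 and Chrnb2 proteins form the main high-affinity type of the brain and Chrna7 forms a channel by itself. Brainstem holds the cholinergic motor nuclei and the pedunculopontine and laterodorsal tegmental groups, to which orexin neurons project, while most cholinergic fibres of the cortex come from the basal forebrain.

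Gene counts summed to between 21915540 and 47057537 per library. Levels are given as CPM, the count of a gene per 1000000 gene counts of its library after TMM scaling of all 36 libraries, and 3 counts corresponded to 0.0638 to 0.137 CPM. The tissues carried their markers: a list of 8 cortical genes summed to 1836 to 2029 CPM in cortex and to at most 269.9 CPM elsewhere, 9 hypothalamic genes to 945.8 to 2231 CPM in hypothalamus and at most 16.5 CPM elsewhere, and 8 brainstem genes to 515.1 to 703.9 CPM in brainstem and at most 2.40 CPM elsewhere. Hcrt, the orexin precursor gene, stood at 2.07 to 2.46 CPM in transgenic hypothalamus against 100.8 to 196.1 CPM in its wild type, and at 0.996 to 1.14 CPM in knockout hypothalamus against 51.4 to 81.2 CPM in its wild type. Several hypothalamus libraries stood apart. Gh, the pituitary growth hormone gene, reached 23500 and 12250 CPM before scaling in ataxin-3 line wild type replicates 1 and 3 and 17430 CPM in knockout line wild type replicate 3, and Omp, an olfactory neuron gene, reached 667.1 CPM in transgenic replicate 1. Slc17a7, a marker of cortical excitatory neurons, reached 118.0 and 87.7 CPM in knockout line wild type replicates 1 and 3 of hypothalamus. A trend with transcript length set knockout replicate 1 of hypothalamus and transgenic replicate 1 of cortex apart from the rest. It is described beside the receptor values of these libraries. Smaller length differences occurred in brainstem. For transcripts over 7000 bases minus those under 1500, the median log2 deviation from the tissue was 0.28 in ataxin-3 line wild type replicate 1. It was 0.19 in replicate 2 of that group, -0.20 in knockout line wild type replicate 2 and -0.03 to 0.11 elsewhere in brainstem. Ataxin-3 line wild type replicates 1 and 2 had 10.1% and 15.2% of counts in no annotated gene, against 6.38% to 7.33% elsewhere in brainstem.

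Brainstem had by far the most transcript of the genes that make cholinergic neurons cholinergic. Chat (ENSMUSG00000021919, GRCm38 chr14:32408203-32465989, minus strand, 17 merged exons) had a lowest, median and highest level of 16.7, 20.6 and 22.2 CPM in the 6 wild-type brainstem libraries, against 0.887, 1.27 and 5.20 CPM in hypothalamus and 0.782, 0.936 and 1.16 CPM in cortex. Brainstem did not overlap with either of the other tissues, whereas hypothalamus and cortex overlapped. The mean was 20.1 ± 2.09 CPM in brainstem, 2.05 ± 1.69 CPM in hypothalamus and 0.948 ± 0.155 CPM in cortex (SD, n = 6 each). In edgeR's quasi-likelihood test with Benjamini-Hochberg adjustment over all 17744 genes tested, Chat was 21.2-fold higher in brainstem than in cortex (log2 fold change 4.41, SE 0.46, adjusted p = 2.58e-09) and 9.75-fold higher in brainstem than in hypothalamus (3.29, SE 0.42, adjusted p = 1.42e-07). Counts of Chat ran only from 18 to 52 per cortex library.

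Slc5a7 (ENSMUSG00000023945, chr17:54273590-54299034, minus strand, 10 merged exons) followed the same order with a wider gap. Its lowest, median and highest levels were 74.0, 90.8 and 105.7 CPM in wild-type brainstem, 3.48, 4.47 and 12.8 CPM in hypothalamus and 1.64, 2.40 and 3.14 CPM in cortex. Among the wild types, all hypothalamus libraries exceeded all cortex libraries, and brainstem stood far above both. The gene was 38.3-fold higher in brainstem than in cortex (log2 fold change 5.26, SE 0.36, adjusted p = 5.42e-13, edgeR) and 15.7-fold higher in brainstem than in hypothalamus (3.97, SE 0.32, adjusted p = 3.87e-11). Per kilobase of exon, Slc5a7 exceeded Chat 3.75 ± 0.370 times in brainstem, 2.77 ± 0.804 times in hypothalamus and 2.10 ± 0.450 times in cortex (SD, n = 6 each). In bulk tissue, fewer cells of a type and less RNA per cell cannot be told apart.

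The difference between hypothalamus and cortex was small for this pair. Slc5a7 was 2.44-fold higher in hypothalamus (log2 fold change 1.29, SE 0.37, adjusted p = 0.00295), and Chat was 2.18-fold higher (1.12, SE 0.50, adjusted p = 0.0431). The call for Chat was lost without hypothalamus ataxin-3 line wild type replicate 3 (log2 fold change 0.42, adjusted p = 0.444), the wild-type library with 5.20 CPM. It was also lost without hypothalamus knockout line wild type replicate 1 (0.89, adjusted p = 0.135), and without any of 5 of the cortex wild types, namely ataxin-3 line replicates 1 and 3 and knockout line replicates 1, 2 and 3 (1.08 to 1.17, adjusted p = 0.0543 to 0.0760). A list of 8 thalamic and habenular genes summed to 80.5 CPM in hypothalamus ataxin-3 line wild type replicate 3. The other hypothalamus libraries had 38.2 to 43.3 CPM, and the part of such tissue was not tested.

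The 5′ flanks of this pair of genes are shown because both genes had the same order of tissues. The sequences are from RefSeq (GRCm38.p6), which held a start for 9 of the 10 genes, and run up to 250 bases before it. Of the Chat window, 80 bases lie inside the M21 gene model and are left out. Capitals mark matches to any of 5 motifs searched on both strands: the homeodomain core TAATTA, the GC box GGGCGG, the E-box CAGCTG, the cyclic AMP element TGACGTCA and the NRSF core CAGCACC. None of these motifs overlaps another in its letters.
Chat, chr14:32465990-32466159, minus strand: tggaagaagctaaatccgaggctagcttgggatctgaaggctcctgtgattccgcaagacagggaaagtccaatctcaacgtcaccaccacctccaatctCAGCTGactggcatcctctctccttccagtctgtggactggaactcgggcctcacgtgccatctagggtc
Slc5a7, chr17:54299035-54299284, minus strand: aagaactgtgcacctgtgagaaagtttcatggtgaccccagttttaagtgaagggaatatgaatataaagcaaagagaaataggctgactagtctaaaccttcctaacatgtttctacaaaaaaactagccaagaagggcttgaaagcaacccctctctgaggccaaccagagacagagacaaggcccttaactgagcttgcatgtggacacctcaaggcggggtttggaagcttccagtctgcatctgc
The Chat window held 1 match, to the E-box, which 13% of the 32851 RefSeq mouse promoters held in windows of the same length. The Slc5a7 window held none of the 5. GC content was 54.7% in the Chat stretch shown and 45.6% in that of Slc5a7.

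Ache (ENSMUSG00000023328, chr5:137287519-137294466, plus strand, 6 merged exons) did not follow Chat. It had a lowest, median and highest level of 174.1, 188.4 and 230.3 CPM in wild-type brainstem, 186.4, 210.2 and 241.9 CPM in hypothalamus and 55.5, 57.1 and 60.7 CPM in cortex. Brainstem and hypothalamus overlapped, and both stood above every cortex library. Ache was 3.42-fold higher in brainstem than in cortex (log2 fold change 1.77, SE 0.08, adjusted p = 2.51e-19, edgeR) and 3.67-fold higher in hypothalamus than in cortex (1.88, SE 0.08, adjusted p = 9.27e-20). Between brainstem and hypothalamus the log2 difference was -0.10 with a 95% interval of -0.25 to 0.05 (adjusted p = 0.219). That comparison passed the threshold without brainstem ataxin-3 line wild type replicate 2 (-0.17, adjusted p = 0.0403). Per kilobase, Ache exceeded Chat 10.1 ± 1.07 times in brainstem, 159.2 ± 91.7 times in hypothalamus and 63.4 ± 10.5 times in cortex (SD, n = 6 each). The ratio ranged from 44.5 to 270.7 in hypothalamus and from 52.5 to 78.97 in cortex, which overlap, and lay below both in every brainstem library.

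**Figure D1:**
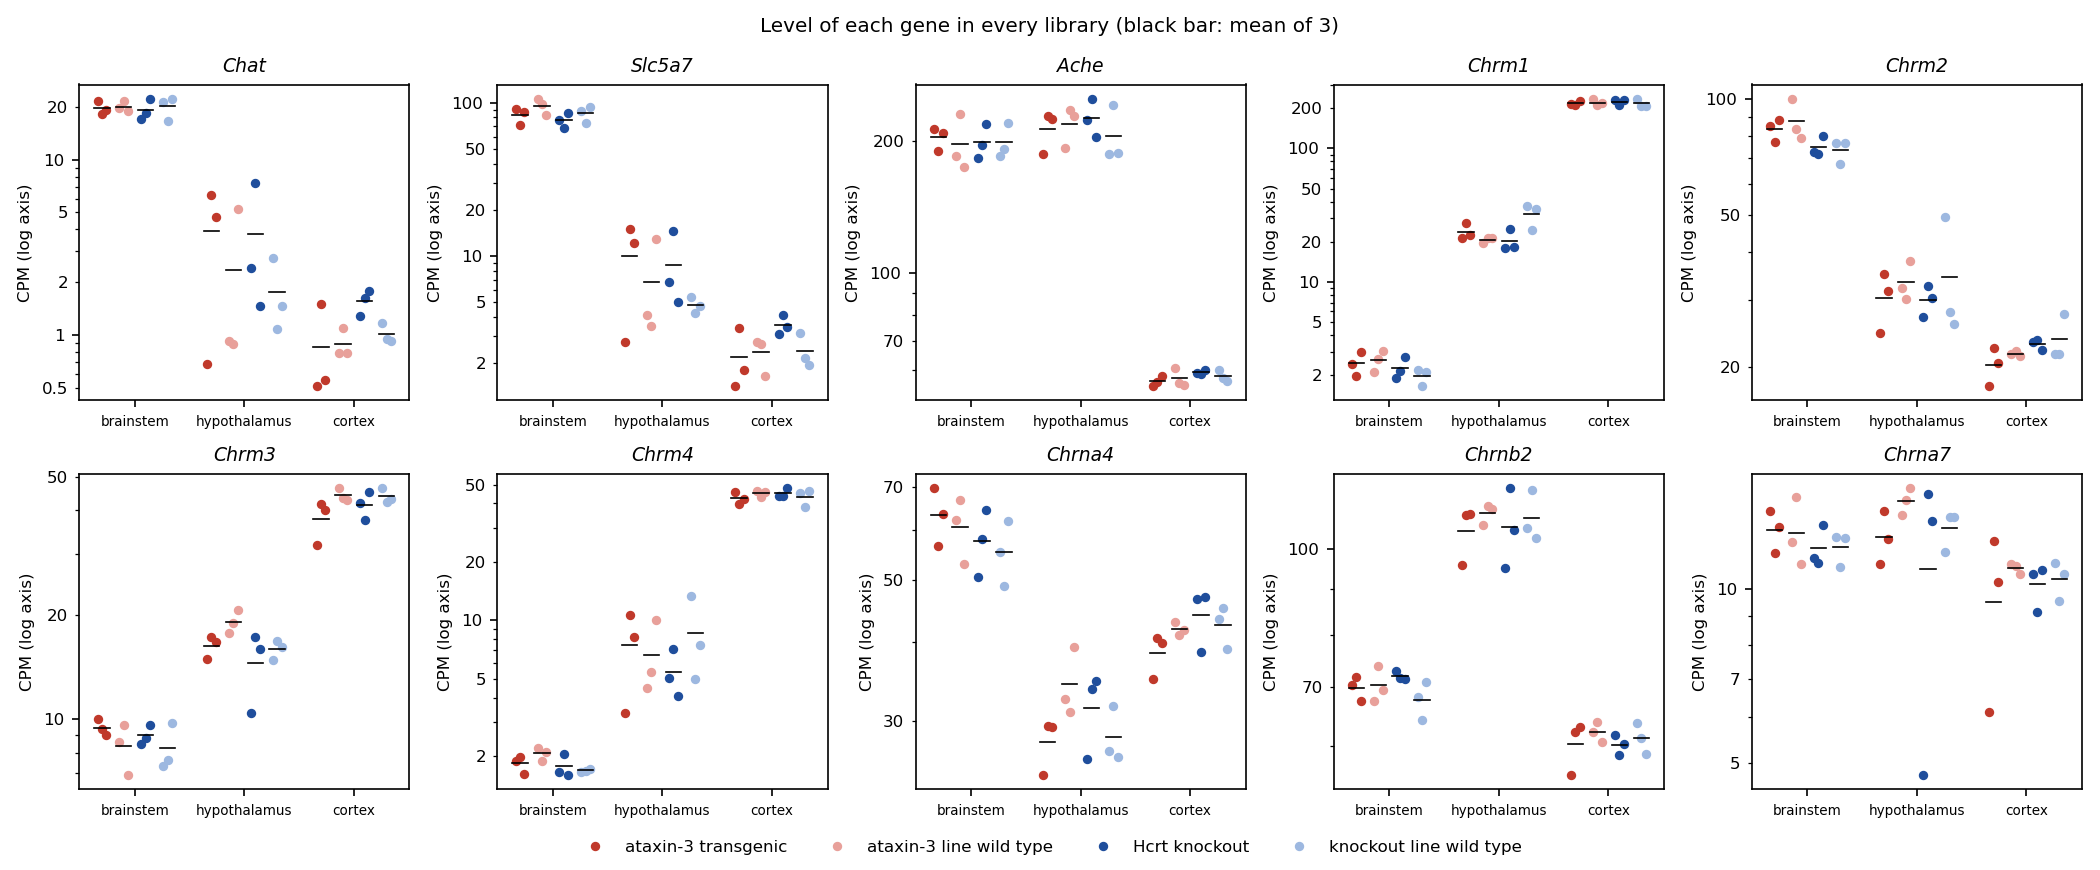
TMM-scaled CPM on a log axis for each of the 10 genes, with each point 1 library, colours for the 4 genotypes and black bars for the mean of 3 libraries. Chat and Slc5a7 were highest in brainstem, Chrm1, Chrm3 and Chrm4 were highest in cortex, and hypothalamus showed the widest spread for Chat, from 0.683 to 7.37 CPM.

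The muscarinic receptors divided into a pair of opposite gradients. Chrm2 was highest in brainstem, while Chrm1, Chrm3 and Chrm4 were highest in cortex and lowest in brainstem. Chrm1 (ENSMUSG00000032773, chr19:8663789-8683587, plus strand, 3 merged exons), the main postsynaptic receptor of forebrain pyramidal cells, had lowest, median and highest levels of 1.67, 2.16 and 3.04 CPM in wild-type brainstem, 19.5, 22.9 and 36.8 CPM in hypothalamus and 207.7, 214.4 and 235.5 CPM in cortex. No tissue overlapped another. The log2 fold change was -6.58 in brainstem against cortex (SE 0.12, adjusted p = 2.8e-27), -3.49 in brainstem against hypothalamus (SE 0.12, adjusted p = 1.13e-20) and -3.09 in hypothalamus against cortex (SE 0.10, adjusted p = 5.11e-22, edgeR).

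Chrm4 (ENSMUSG00000040495, chr2:91927249-91928688, plus strand, a single exon of 1440 bases in M21), a Gi/o receptor abundant in striatum and cortex, gave 1.66, 1.81 and 2.21 CPM in wild-type brainstem, 4.46, 6.43 and 13.3 CPM in hypothalamus and 38.3, 45.5 and 46.4 CPM in cortex (lowest, median and highest). These ranges did not overlap either. Its log2 fold change was -4.56 in brainstem against cortex (SE 0.25, adjusted p = 2.85e-15), -2.02 in brainstem against hypothalamus (SE 0.25, adjusted p = 8.94e-08) and -2.54 in hypothalamus against cortex (SE 0.21, adjusted p = 3.1e-11). Chrm3 (ENSMUSG00000046159, chr13:9875486-10360847, minus strand, 6 merged exons), a Gq receptor known from smooth muscle and glands as well as brain, had the same direction with smaller steps. Its wild-type means were 8.30 ± 1.197 CPM in brainstem, 17.5 ± 2.08 CPM in hypothalamus and 44.1 ± 1.83 CPM in cortex (SD, n = 6 each), with log2 fold changes of -2.42 in brainstem against cortex, -1.08 in brainstem against hypothalamus and -1.34 in hypothalamus against cortex.

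Chrm2 (ENSMUSG00000045613, chr6:36388084-36528414, plus strand, 4 merged exons), the receptor of heart muscle and a presynaptic autoreceptor of cholinergic terminals, ran the other way. Its lowest, median and highest levels were 67.7, 78.1 and 100.1 CPM in wild-type brainstem, 26.0, 31.2 and 49.3 CPM in hypothalamus and 21.4, 21.7 and 27.5 CPM in cortex. Brainstem stood above both other tissues, which overlapped. It was 3.55-fold higher in brainstem than in cortex (log2 fold change 1.83, SE 0.12, adjusted p = 1.79e-14) and 2.37-fold higher in brainstem than in hypothalamus (1.25, SE 0.11, adjusted p = 9.11e-11), and 1.49-fold higher in hypothalamus than in cortex (0.58, SE 0.11, adjusted p = 5.08e-05, edgeR).

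The flanks of the receptors with the opposite gradients, Chrm2 and Chrm4, are shown to set a sequence beside each, with the same capitals.
Chrm2, chr6:36387834-36388083, plus strand: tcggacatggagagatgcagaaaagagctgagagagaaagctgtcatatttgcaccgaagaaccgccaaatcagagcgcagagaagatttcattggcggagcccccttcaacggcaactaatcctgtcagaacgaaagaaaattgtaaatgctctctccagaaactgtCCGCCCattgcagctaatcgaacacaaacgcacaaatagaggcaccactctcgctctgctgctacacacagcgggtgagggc
Chrm4, chr2:91921939-91922188, plus strand: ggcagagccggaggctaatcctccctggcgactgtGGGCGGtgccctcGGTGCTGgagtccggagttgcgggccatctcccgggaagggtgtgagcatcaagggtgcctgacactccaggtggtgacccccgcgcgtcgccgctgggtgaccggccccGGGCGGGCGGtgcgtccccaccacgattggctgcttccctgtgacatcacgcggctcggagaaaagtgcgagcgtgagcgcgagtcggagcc
The Chrm2 window held 1 GC box, and the Chrm4 window held 3 GC boxes, overlapping in part, and 1 NRSF core. GC boxes were held by 32.7% of all RefSeq promoters and NRSF cores by 5.73%, while TAATTA and TGACGTCA, in 4.84% and 1.55% of promoters, were in none of the 4 windows shown. GC content was 50% for Chrm2 and 70% for Chrm4. The M21 model of Chrm4 begins downstream of the RefSeq start and covers only 1 exon, so reads from upstream exons would not be in a count made on such a model.

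Expressed as shares of the summed per-kilobase level of Chrm1 to Chrm4, the mix of receptors differed between the wild-type tissues. In brainstem, Chrm2 took 81.6 ± 1.24% of the sum, Chrm3 8.19 ± 1.24%, Chrm4 7.995 ± 0.599% and Chrm1 2.18 ± 0.438% (SD, n = 6). In hypothalamus no receptor had most of it: Chrm2 took 31.7 ± 4.13%, Chrm4 28.6 ± 6.15%, Chrm1 23.1 ± 4.87% and Chrm3 16.5 ± 4.06%. These libraries include knockout line wild type replicates 1 and 3, where the cortical list summed to 204.6 and 174.9 CPM, against 84.6 CPM in replicate 2. The part of cortical transcripts in the hypothalamus shares was not tested. In cortex, Chrm1 took 44.9 ± 1.37%, Chrm4 40.7 ± 1.35%, Chrm3 9.38 ± 0.288% and Chrm2 4.99 ± 0.562%. The sum of the 4 was 16.3 ± 2.00 CPM per kilobase in brainstem, 17.7 ± 4.33 in hypothalamus and 75.3 ± 3.84 in cortex. Counts of Chrm4 were divided by the 1440 bases of its single M21 exon, and those of the others by 6053 to 6487 bases. The shares thus depend on that model. Before division by length, Chrm4 averaged 44.1 CPM and Chrm1 219.2 CPM in wild-type cortex.

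**Figure D2:**
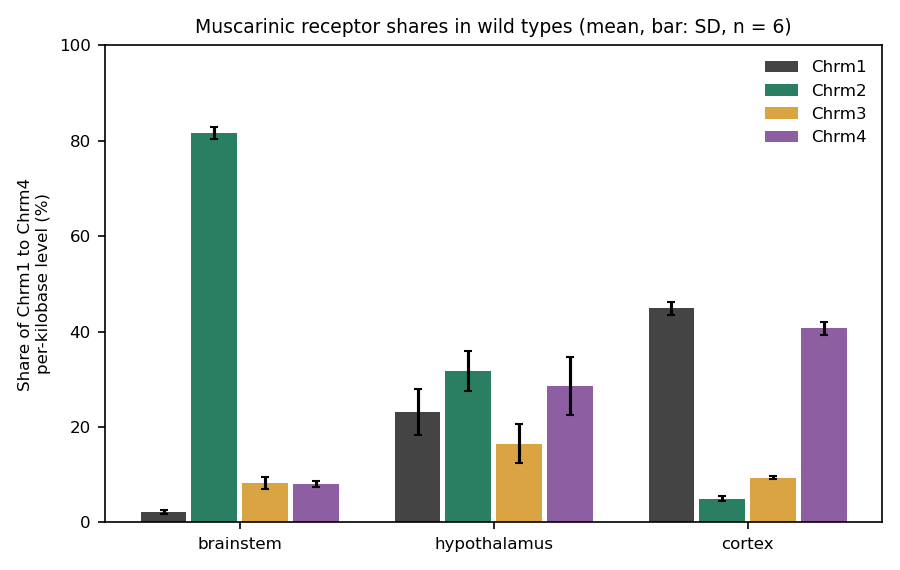
Mean share (%) of each muscarinic receptor in the summed per-kilobase level of Chrm1 to Chrm4, by tissue, in the 6 wild-type libraries of each tissue, with error bars for the SD. Chrm2 made up 81.6% in brainstem, and Chrm1 and Chrm4 made up 44.9% and 40.7% in cortex. The level of Chrm4 rests on its single M21 exon of 1440 bases.

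The 3 nicotinic subunits among the 10 genes each had log2 differences between tissues below 1 in size. Chrna4 (ENSMUSG00000027577, chr2:181018380-181043546, minus strand, 8 merged exons) had lowest, median and highest levels of 48.9, 58.7 and 66.9 CPM in wild-type brainstem, 26.4, 31.4 and 39.3 CPM in hypothalamus and 38.9, 42.4 and 45.2 CPM in cortex. Its log2 fold change was 0.46 in brainstem against cortex (SE 0.08, adjusted p = 1.26e-05), 0.89 in brainstem against hypothalamus (SE 0.08, adjusted p = 1.03e-10) and -0.44 in hypothalamus against cortex (SE 0.08, adjusted p = 2.96e-05, edgeR). Brainstem was thus highest and hypothalamus lowest.

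Chrnb2 (ENSMUSG00000027950, chr3:89746195-89764632, minus strand, 7 merged exons), the partner subunit, was highest in hypothalamus, where Chrna4 was lowest. Its lowest, median and highest levels were 64.2, 68.8 and 73.8 CPM in wild-type brainstem, 102.7, 108.6 and 116.5 CPM in hypothalamus and 58.9, 61.8 and 63.9 CPM in cortex. Every hypothalamus library stood above every library of the other tissues. The log2 fold change was 0.82 in hypothalamus against cortex (SE 0.05, adjusted p = 4.62e-16), -0.66 in brainstem against hypothalamus (SE 0.05, adjusted p = 1.27e-13) and 0.16 in brainstem against cortex (SE 0.05, adjusted p = 0.00309). The per-kilobase ratio of Chrnb2 to Chrna4 averaged 2.11 in hypothalamus against 0.879 in cortex and 0.718 in brainstem. In M21, 1365 bases or 16.3% of the exons of Chrnb2 overlap Adar on the opposite strand, and whether the counting used strand is not given in the sources used here.

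Chrna7 (ENSMUSG00000030525, chr7:63098692-63212569, minus strand, 11 merged exons) varied least. Its means were 12.2 ± 1.27 CPM in wild-type brainstem, 13.5 ± 1.14 CPM in hypothalamus and 10.7 ± 0.580 CPM in cortex (SD, n = 6 each). The log2 differences were 0.19 in brainstem against cortex (95% interval -0.14 to 0.52, adjusted p = 0.282), -0.15 in brainstem against hypothalamus (-0.48 to 0.18, adjusted p = 0.416) and 0.34 in hypothalamus against cortex (0.01 to 0.67, adjusted p = 0.0552), none past the threshold in the fit of all 36 libraries. In a fit of the wild-type libraries alone, all 3 passed with nearly the same sizes (0.19, adjusted p = 0.0130; -0.15, adjusted p = 0.0487; 0.35, adjusted p = 9.94e-05). The fit of all libraries includes the 2 libraries with the length trend, in which Chrna7 stood at 4.77 and 6.12 CPM.

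Counted over the 10 genes, brainstem against cortex gave 6 higher and 3 lower, against a background of 39.8% and 38.7% of all genes (78.6% in either direction). Brainstem against hypothalamus gave 4 higher and 4 lower, against 32% and 36.2% (68.2%). Hypothalamus against cortex gave 5 higher and 4 lower, with Chrna7 the exception, against 38.7% and 37.2% (75.9%). Most genes of these tissues differ at this depth, so the number called is near the background, while the sizes were larger: the median absolute log2 fold change of the 10 genes was 2.12, 1.16 and 1.205 in these 3 comparisons, beside 0.58, 0.38 and 0.50 over all genes tested. The 10 genes were chosen with earlier results of these data known, so their sizes may depend on that choice.

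**Figure D3:**
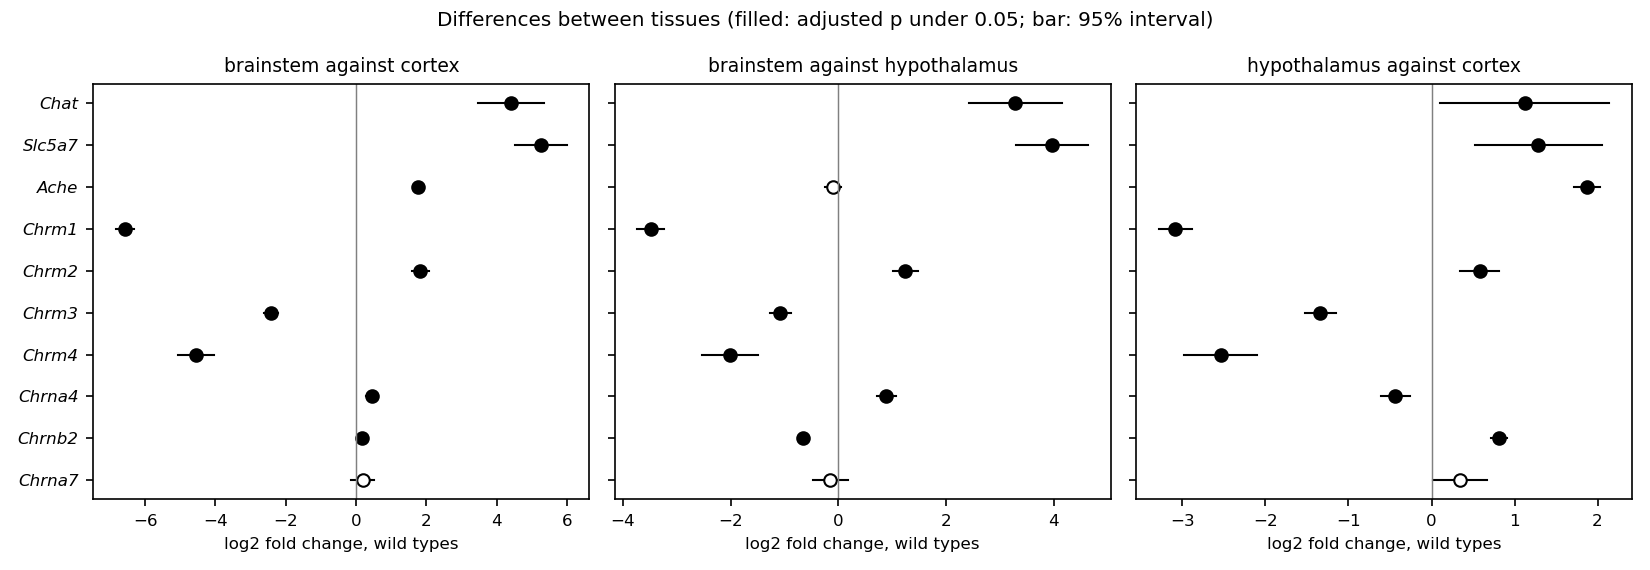
Log2 fold change between tissues of wild-type mice for each gene, with 95% intervals, filled where the adjusted p was under 0.05. Slc5a7 and Chat lie farthest to the right in both brainstem comparisons, Chrm1 and Chrm4 farthest to the left, and Chrna7 is open in all 3 panels.

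Ranked by wild-type CPM per kilobase, Ache led in brainstem (42.8 ± 4.80, SD, n = 6) and hypothalamus (45.9 ± 5.56) and Chrm1 led in cortex (33.8 ± 1.90). In brainstem the order after Ache was Slc5a7 at 16.0, Chrm2 at 13.3, Chrna4 at 11.6, Chrnb2 at 8.23, Chat at 4.27, Chrna7 at 2.71, Chrm3 at 1.33, Chrm4 at 1.30 and Chrm1 at 0.354 CPM per kilobase. The neighbours Slc5a7 and Chrm2, Chrm2 and Chrna4, and Chrm3 and Chrm4 overlapped in range. In hypothalamus Chrnb2 followed at 13.0, and Chrna4, Chrm2, Chrm4, Chrm1, Chrna7 and Chrm3 came next, between 6.24 and 2.80, each overlapping its neighbour, with Slc5a7 at 1.03 and Chat at 0.436 last. In cortex Chrm1 and Chrm4 (30.7) overlapped, followed by Ache at 12.5, Chrna4 at 8.41, Chrnb2 at 7.38 and Chrm3 at 7.06, of which the last pair overlapped, and then Chrm2 at 3.75, Chrna7 at 2.37, Slc5a7 at 0.422 and Chat at 0.202. With the longest transcript as the length, Chrm1 and Chrna7 changed places in hypothalamus and Chrna4 and Chrm3 in cortex. Chrm4 had the same length of 1440 bases by either measure, so its rank depends on the single-exon model in both.

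Of 33 other genes of the cholinergic system listed by role, 28 had enough counts to be tested between tissues. Slc18a3, listed under acetylcholine handling, was not among the genes counted, so its level is not known here. In brainstem against cortex 19 were higher and 4 lower, in brainstem against hypothalamus 13 higher and 9 lower, and in hypothalamus against cortex 16 higher and 3 lower. The background in either direction was 78.6%, 68.2% and 75.9% of all genes, so the numbers called are near it. All 5 tested genes of acetylcholine handling were higher in brainstem than in each of the other tissues, beside 39.8% of all genes higher than in cortex and 32% higher than in hypothalamus. Among them Slc10a4, a vesicular protein of cholinergic and monoaminergic terminals, averaged 15.5 ± 1.51 CPM in brainstem, 5.63 ± 1.48 CPM in hypothalamus and 0.609 ± 0.239 CPM in cortex (log2 fold change 4.69 in brainstem against cortex and 3.20 in hypothalamus against cortex). Colq, the collagen tail of acetylcholinesterase, averaged 6.34 ± 0.275 CPM in brainstem and 0.226 ± 0.0958 CPM in hypothalamus (4.86).

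Identity factors of cholinergic neurons were split by tissue. Mnx1, a motor neuron factor, reached only 3 to 13 counts per brainstem library and 0 in cortex. Gbx1, a homeobox gene of basal forebrain and spinal neurons, averaged 3.10 ± 0.487 CPM in brainstem, 0.837 ± 0.806 CPM in hypothalamus and 0.108 ± 0.0460 CPM in cortex (log2 fold change 4.81 in brainstem against cortex). Lhx8, which specifies basal forebrain cholinergic neurons, was lower in brainstem than in hypothalamus, unlike Gbx1, with 0 to 4 counts per brainstem library against a mean of 1.24 ± 1.59 CPM in hypothalamus (-5.02). That mean leaned on ataxin-3 line wild type replicate 3. The lowest, median and highest wild-type hypothalamus levels of Lhx8 were 0.309, 0.452 and 4.35 CPM. Isl1, shared by motor neurons and many hypothalamic neurons, averaged 27.4 ± 2.56 CPM in hypothalamus and 0.516 ± 0.236 CPM in cortex (5.77).

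Ngfr, the low-affinity neurotrophin receptor, which basal forebrain cholinergic neurons carry, averaged 8.60 ± 2.22 CPM in hypothalamus and 0.800 ± 0.0823 CPM in cortex (log2 fold change 3.43), and its difference between brainstem and hypothalamus did not pass the threshold (0.22, 95% interval -0.15 to 0.59, adjusted p = 0.285).

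Rarer receptor genes had large tissue differences. Chrm5, the muscarinic receptor of dopamine neurons, averaged 0.814 ± 0.158 CPM in brainstem, 10.1 ± 1.90 CPM in hypothalamus and 0.209 ± 0.186 CPM in cortex, with log2 fold changes of -3.64 in brainstem against hypothalamus and 5.73 in hypothalamus against cortex. Chrnb4, a subunit of ganglionic and habenular receptors, averaged 2.70 ± 0.343 CPM in brainstem, 1.54 ± 0.806 CPM in hypothalamus and 0.199 ± 0.267 CPM in cortex (3.90 in brainstem against cortex and 3.02 in hypothalamus against cortex). Chrna6, a subunit of dopamine neurons, averaged 4.71 ± 2.20 CPM in hypothalamus against 0.567 ± 0.202 CPM in cortex (3.02). Chrnb3 averaged 0.343 ± 0.130 CPM in brainstem against 5.69 ± 4.39 CPM in hypothalamus (-4.02), with hypothalamus libraries from 0.509 to 11.1 CPM. The highest level of the listed genes was that of Lynx1, a membrane-bound modulator of nicotinic receptors, at 539.0 ± 30.3 CPM in brainstem, 279.2 ± 25.6 CPM in hypothalamus and 459.9 ± 19.5 CPM in cortex, and the lowest were Chrng and Chrnd, the muscle subunits, with 0 to 5 counts per library.

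Across all 36 libraries and 13765 protein-coding genes, the genes most like Chat in log2 CPM were Rcan2, Sox10, Emilin2, Galnt6 and Map4 (Pearson r 0.945 to 0.941). Those most like Slc5a7 were Rcan2, Fa2h, Klhl4, Adipor2 and S1pr5 (0.976 to 0.973), and those most like Chrm4 were Agap2, 2010300C02Rik, Akap5, Ptk2b and Cdk17 (0.992 to 0.989). These libraries share their tissue, so the likeness is that of tissue order. Beside the Chat and Slc5a7 lists stands a summed level of 5 oligodendrocyte genes of 16030 to 19900 CPM in brainstem, 3897 to 5363 CPM in hypothalamus and 3309 to 4411 CPM in cortex, whose part was not tested.

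In hypothalamus, Chat varied more between libraries of 1 genotype than between genotypes. It stood at 0.683, 6.27 and 4.73 CPM in transgenic replicates 1 to 3 against 0.926, 0.887 and 5.20 CPM in their wild type, and at 2.42, 7.37 and 1.47 CPM in knockout replicates 1 to 3 against 2.75, 1.08 and 1.46 CPM in their wild type. Slc5a7 stood at 2.76, 14.96 and 12.1 CPM in transgenic libraries against 4.12, 3.49 and 12.8 CPM in wild type, and at 6.75, 14.5 and 4.98 CPM in knockout libraries against 5.37, 4.26 and 4.68 CPM in wild type. High libraries occurred in 3 of the 4 genotypes: transgenic replicates 2 and 3, ataxin-3 line wild type replicate 3 and knockout replicate 2 were the 4 highest for both genes, and the groups overlapped in both comparisons.

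The same 4 libraries were also the highest for Lhx8, with 6.45 and 4.01 CPM in transgenic replicates 2 and 3, 3.95 CPM in knockout replicate 2 and 4.35 CPM in ataxin-3 line wild type replicate 3, against 0.309 to 3.06 CPM in the other 8. Gbx1 stood at 2.28 and 1.45 CPM in transgenic replicates 2 and 3, at 1.95 CPM in knockout replicate 2 and at 2.45 CPM in ataxin-3 line wild type replicate 3, and at 0.251 to 1.11 CPM in the other 8. Ngfr stood at 15.3 and 13.2 CPM in these transgenic libraries, at 19.4 CPM in the knockout and at 12.7 CPM in the wild type, and at 6.11 to 10.9 CPM in the other 8. All 3 genes thus had their highest values in the same libraries as Chat and Slc5a7. Isl1 did not share the pattern, with 27.8 to 31.6 CPM in these 4 and 24.2 to 35.02 CPM in the other 8. A list of 8 striatal genes was also highest in these 4 libraries. It summed to 467.0 and 432.8 CPM in transgenic replicates 2 and 3 and to 437.4 CPM in ataxin-3 line wild type replicate 3. The sum was 298.0 CPM in knockout replicate 2 and 235.3 to 279.2 CPM in the other 8. Whether tissue of the neighbouring basal forebrain or striatum moved these values was not tested.

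**Figure D4:**
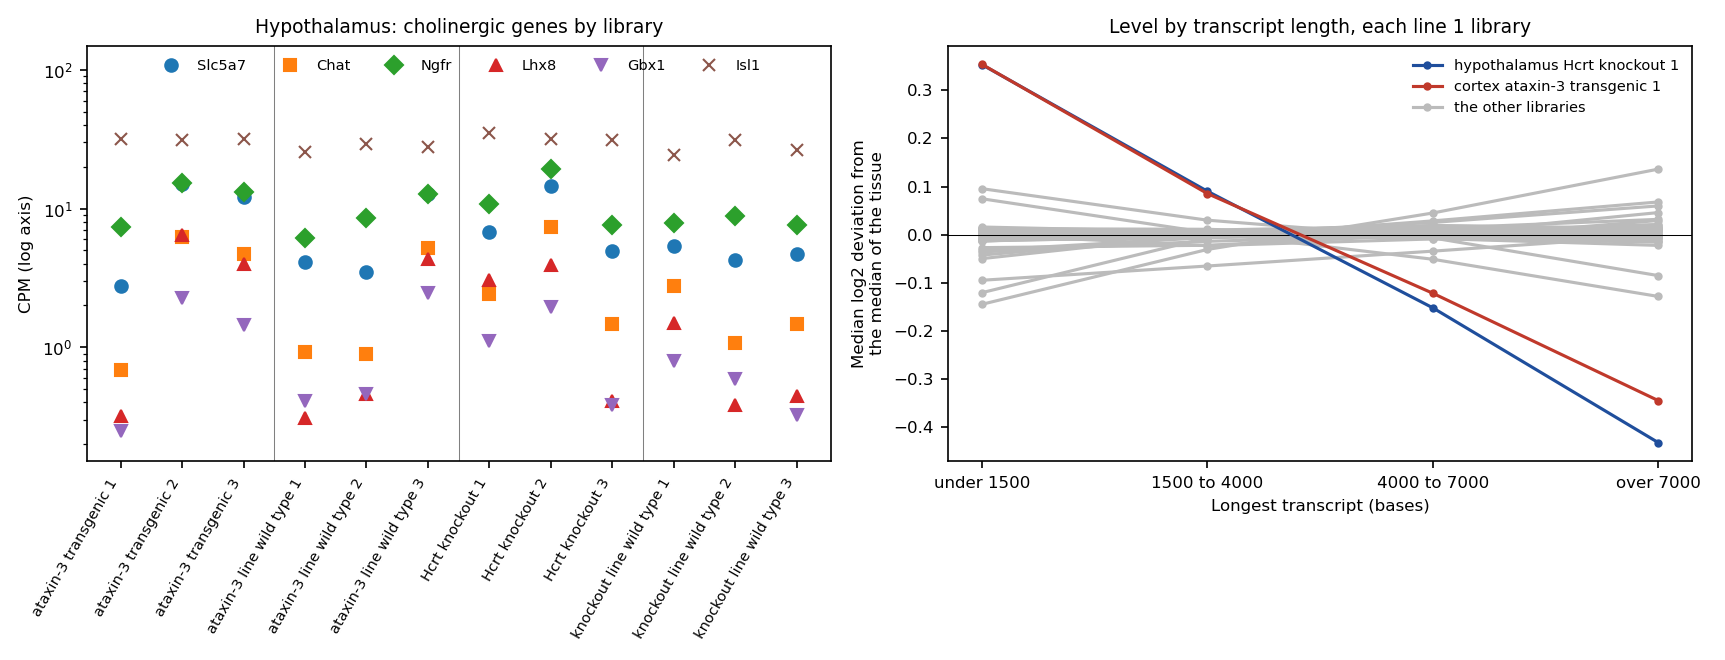
Left, CPM on a log axis of 6 cholinergic genes in each of the 12 hypothalamus libraries, by genotype. Right, median log2 deviation of a library from the median of its tissue in 4 classes of transcript length (bases), each line 1 library: Chat, Slc5a7, Lhx8, Gbx1 and Ngfr are high in the same 4 libraries, and 2 libraries have a steeply falling line, from 0.353 to -0.432 and from 0.354 to -0.344.

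No cholinergic gene of the 10 was called in hypothalamus of either model. The test called 1 of 16738 genes in transgenic against wild type (0.00597%) and 2 in knockout against wild type (0.0119%). The log2 fold change of Chat was 0.71 in transgenic (95% interval -1.42 to 2.84, adjusted p = 1.00) and 1.09 in knockout (-1.06 to 3.24, adjusted p = 0.813), and that of Slc5a7 was 0.53 (-0.98 to 2.04) and 0.87 (-0.65 to 2.40). The intervals for Chat reach beyond 1 on the log2 scale in both directions. When the 4 libraries high in Gh or Omp were left out, which leaves 2 transgenic libraries and 1 wild type, the transgenic value for Chat was 2.61 (adjusted p = 1.00). Libraries of 1 group varied more in hypothalamus than elsewhere, with a fitted biological coefficient of variation of 18.04%, against 9.03% in brainstem and 7.35% in cortex. DESeq2 and limma-voom called 0 of the 10 at an adjusted p under 0.05. At an unadjusted p under 0.05, edgeR gave 1 of the 10 genes in each model, beside 4.16% and 3.89% of all genes.

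In the transgenic hypothalamus that gene was Chrna4. It stood at 24.7, 29.5 and 29.4 CPM in transgenic libraries against 32.5, 31.1 and 39.3 CPM in wild type, without overlap, with a log2 fold change of -0.29 (95% interval -0.55 to -0.03, adjusted p = 1.00, edgeR). Chrm3, at 14.9, 17.2 and 16.7 CPM in transgenic libraries against 17.7, 18.9 and 20.7 CPM in wild type, also did not overlap (-0.22, -0.54 to 0.10, adjusted p = 1.00). Lack of overlap between 3 libraries and 3 occurred for 9.64% of all genes in this comparison and for 7.12% in knockout against wild type, where none of the 10 genes showed it.

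In the knockout hypothalamus the gene was Chrm1. It stood at 17.8, 25.01 and 18.1 CPM in knockout libraries against 36.8, 24.4 and 34.95 CPM in wild type, with a log2 fold change of -0.66 (95% interval -1.02 to -0.29, unadjusted p = 0.00207, adjusted p = 0.806, edgeR). The wild-type libraries that were high, replicates 1 and 3, were those with 118.0 and 87.7 CPM of Slc17a7, against 0.565 CPM in wild-type replicate 2 and 2.42, 1.03 and 1.82 CPM in the knockouts. The list of 8 cortical genes summed to 75.2 to 85.7 CPM in the 3 knockouts and to 204.6, 84.6 and 174.9 CPM in wild-type replicates 1 to 3. Chrm1 was 219.2 CPM on average in wild-type cortex, and the part of cortical transcripts in the difference was not tested. Chrm4, the other receptor with most transcript in cortex, stood at 5.04, 7.11 and 4.07 CPM in knockout libraries against 13.3, 4.96 and 7.46 CPM in wild type, with the groups overlapping (-0.67, -1.75 to 0.42, adjusted p = 0.806).

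Among the other genes of hypothalamus, Chrnb2 and Ache had narrower intervals around 0 than Chrm2. Chrnb2 had log2 fold changes of -0.06 in transgenic (95% interval -0.23 to 0.11) and -0.03 in knockout (-0.20 to 0.14), and Ache of -0.03 (-0.28 to 0.22) and 0.14 (-0.11 to 0.40). Chrm2 had -0.13 (-0.62 to 0.36) and -0.19 (-0.68 to 0.29). Chrna7 stood at 11.1, 13.7 and 12.2 CPM in transgenic libraries against 13.5, 14.3 and 15 CPM in wild type, and at 4.77, 14.7 and 13.2 CPM in knockout libraries against 11.6, 13.4 and 13.4 CPM in wild type. Its low value, like the 10.4 CPM of Chrm3 against 17.3 and 15.9 CPM in the other knockouts, came from knockout replicate 1. In that library the median deviation from the tissue ran from 0.353 on the log2 scale for transcripts under 1500 bases to -0.432 for those over 7000 bases, while the other hypothalamus libraries differed by -0.18 to 0.09 between these classes. Without it, the knockout log2 fold change was 0.11 for Chrna7 and 0.05 for Chrm3, where with it they were -0.23 and -0.13. The longest transcript of Chrna7, 2814 bases, lies in the class of 1500 to 4000 bases, whose median deviation in knockout replicate 1 was 0.09. That of Chrm3, 4336 bases, lies in the class of 4000 to 7000 bases, at -0.15. Whether the length trend moved these genes was not tested.

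In cortex all 10 genes had fold changes below 0 in transgenic against wild type, and none was called, beside 0 of 16479 genes (0%). Without transgenic replicate 1, 4 of them were above 0: Chat (0.16), Slc5a7 (0.12), Chrna7 (0.04) and Chrnb2 (0.01). The median log2 fold change of the 10 was -0.10, beside 0.00 over all genes. DESeq2 and limma-voom called 0 of the 10 at an adjusted p under 0.05. At an unadjusted p under 0.05, edgeR gave 1 of the 10 (Chrm3), beside 5.09% of all genes. Chrm3 stood at 31.8, 41.8 and 40.1 CPM in transgenic libraries against 46.4, 43.4 and 42.9 CPM in wild type, without overlap (log2 fold change -0.22, 95% interval -0.42 to -0.03, adjusted p = 0.751). Chrna4, at 34.98, 40.5 and 39.8 CPM against 43.0, 41.0 and 41.8 CPM in wild type, also did not overlap (-0.12, -0.30 to 0.05), and Chrna7 stood at 6.12, 12.1 and 10.3 CPM against 11.1, 10.99 and 10.6 CPM in wild type. Lack of overlap occurred for 9.01% of all genes here.

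The lowest transgenic value of each of these 3 genes was that of replicate 1, the other library with the length trend, whose deviation ran from 0.354 for transcripts under 1500 bases to -0.344 for those over 7000 bases. The other cortex libraries differed by -0.01 to 0.04. Without it the log2 fold change was -0.11 for Chrm3, -0.06 for Chrna4 and 0.04 for Chrna7. In transgenic replicate 1 the class of 1500 to 4000 bases, which holds Chrna7, had a median deviation of 0.09. The class of 4000 to 7000 bases, which holds Chrm3 and Chrna4, had -0.12. The part of the length trend in these values was not tested.

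In the knockout cortex Chat stood at 1.28, 1.63 and 1.79 CPM in knockout libraries against 1.16, 0.953 and 0.920 CPM in wild type, without overlap. Its log2 fold change was 0.61 (95% interval -0.05 to 1.28, adjusted p = 1.00, edgeR), beside 13 of 16479 genes called (0.0789%). Slc5a7 stood at 3.10, 4.14 and 3.46 CPM in knockout libraries against 3.14, 2.15 and 1.94 CPM in wild type, which overlapped (0.56, -0.05 to 1.18, adjusted p = 1.00). Striatum holds cholinergic interneurons, and a list of 8 striatal genes summed to 590.8, 603.4 and 695.1 CPM in knockout cortex against 601.8, 365.1 and 467.0 CPM in wild type, with Drd1, a striatal dopamine receptor gene, at 25.3, 27.5 and 31.2 CPM against 26.1, 17.4 and 19.7 CPM in wild type. Wild-type replicate 1, highest of its group for Chat, was highest for the striatal genes as well, and the part of striatal transcripts was not tested. At an unadjusted p under 0.05, edgeR gave 0 of the 10 beside 3.3% of all genes, and lack of overlap occurred for 10.7% of genes and for 1 of the 10. DESeq2 and limma-voom called 0 of the 10 at an adjusted p under 0.05.

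In brainstem, where Chat and Slc5a7 were abundant, their intervals were narrower than in the other tissues. Chat stood at 21.7, 18.2 and 19.1 CPM in transgenic libraries against 19.7, 21.6 and 18.9 CPM in wild type, and at 17.1, 18.5 and 22.2 CPM in knockout libraries against 21.5, 16.7 and 22.2 CPM in wild type. The groups overlapped, and the log2 fold change was -0.02 in transgenic (95% interval -0.26 to 0.21) and -0.06 in knockout (-0.30 to 0.17). Slc5a7 stood at 90.2, 71.2 and 86.6 CPM in transgenic libraries against 105.7, 97.9 and 82.8 CPM in wild type (-0.20, -0.46 to 0.05, adjusted p = 0.655), and at 77.2, 68.2 and 85.3 CPM in knockout libraries against 88.7, 74.0 and 92.9 CPM in wild type (-0.15, -0.40 to 0.10, adjusted p = 1.00). The groups overlapped in each comparison. A list of 5 cerebellar genes summed to 203.9, 744.9 and 180.4 CPM in transgenic libraries against 179.6, 192.7 and 852.6 CPM in wild type. In knockout libraries it summed to 900.9, 676.0 and 231.8 CPM against 605.2, 656.5 and 218.4 CPM in wild type. In each group, libraries with sums of 605.2 CPM or more had lower Slc5a7 than the rest, and the part of cerebellar tissue was not tested. Chrm2 gave -0.07 (-0.24 to 0.10) in transgenic and 0.02 (-0.15 to 0.19) in knockout. The largest bound of any 95% interval among the 10 genes in brainstem was 0.52 in transgenic and 0.59 in knockout on the log2 scale, both from the low-count receptors Chrm4 and Chrm1, whereas in hypothalamus it was 2.84 and 3.24, both from Chat.

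Chrnb2, at 72.9, 71.6 and 71.4 CPM in knockout brainstem against 68.1, 64.2 and 70.8 CPM in wild type, was the only one of the 10 genes without overlap in brainstem (log2 fold change 0.09, 95% interval -0.02 to 0.20, adjusted p = 1.00), beside 9.68% of all genes in knockout and 12.4% in transgenic. The test called 1 of 16493 genes in transgenic (0.00606%) and 12 in knockout (0.0728%), none of the 10. DESeq2 and limma-voom called 0 of the 10 at an adjusted p under 0.05. At an unadjusted p under 0.05, edgeR gave 0 of the 10 in both, beside 8.35% and 3.24% of all genes.

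**Figure D5:**
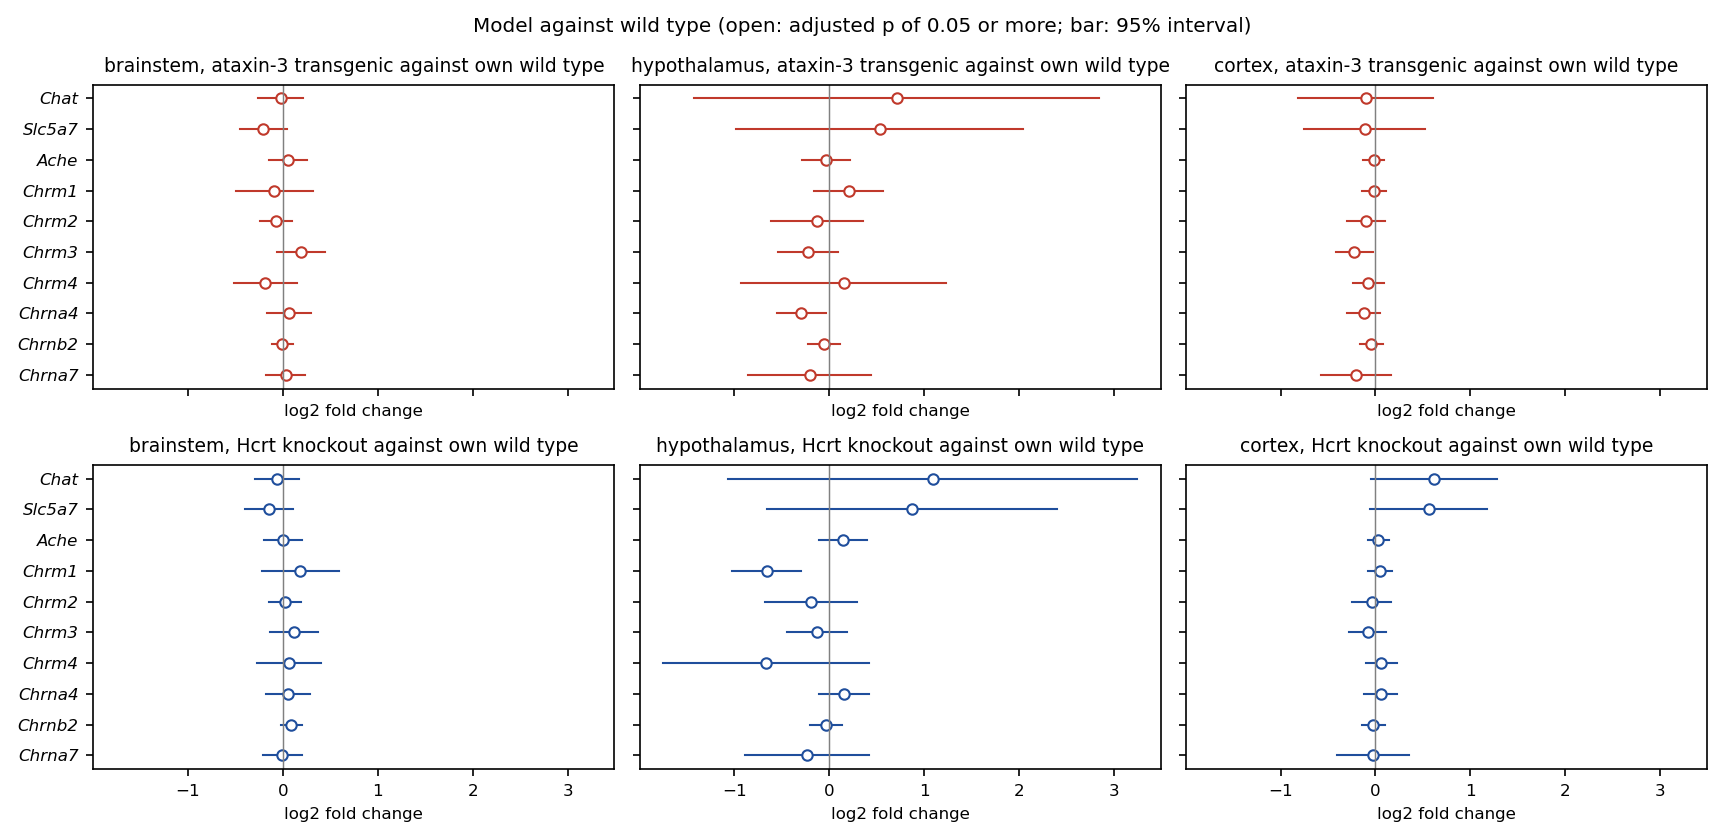
Log2 fold change with 95% interval of each gene in transgenic (upper panels) and knockout (lower panels) mice against their own wild types, by tissue, open where the adjusted p was 0.05 or more. All points are open, and the intervals of Chat and Slc5a7 are several times wider in hypothalamus than in brainstem.

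Differences between the models and between tissues were tested as contrasts of their own. The transgenic effect minus the knockout effect called 0% of genes in hypothalamus and brainstem and 0.0243% in cortex, and none of the 10. In hypothalamus that difference was 0.86 for Chrm1 (95% interval 0.35 to 1.38, adjusted p = 0.979) and -0.45 for Chrna4 (-0.82 to -0.08, adjusted p = 0.979). The wild types of the 2 lines were compared as well, and 0% of genes passed the threshold in any tissue. For Chrm1 in hypothalamus the ataxin-3 line minus knockout line difference was -0.63 (-0.998 to -0.27, adjusted p = 1.00), and the same knockout line wild-type libraries enter both contrasts. Chrm2 in brainstem differed by 0.24 (0.07 to 0.41, adjusted p = 0.206) between these wild types. It stood at 100.1, 83.6 and 79.3 CPM in the ataxin-3 line and at 76.9, 67.7 and 76.6 CPM in the knockout line. Chrm2 was the 1 gene of the 10 to pass the threshold there without ataxin-3 line wild type replicate 3. The cerebellar list summed to 179.6, 192.7 and 852.6 CPM in ataxin-3 line wild type replicates 1 to 3. In the knockout line wild type the sums were 605.2, 656.5 and 218.4 CPM, and the part of cerebellar transcripts was not tested.

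Whether an effect differed between tissues was tested in the fit of all libraries. In transgenic mice 0% of 17744 genes passed in any pair of tissues, and in knockout mice 0.00564% passed in hypothalamus minus cortex and in brainstem minus hypothalamus and 0% in brainstem minus cortex, with none of the 10 among them. The largest of these differences relative to its error was that of Chrm1 in knockout hypothalamus minus cortex, at -0.70 (95% interval -1.07 to -0.33, adjusted p = 0.449), and of the alternatives run it passed the threshold only without hypothalamus knockout line wild type replicate 2, the library of that group with 0.565 CPM of Slc17a7. Of the other cholinergic genes, none was called in transgenic or knockout mice of any tissue by edgeR, with lowest adjusted p-values from 0.615 in transgenic brainstem to 1.00. In the same tests, 12 of the 148 pairs of gene and comparison had an unadjusted p under 0.05. In hypothalamus these were 3 of 25 in transgenic and 3 of 25 in knockout, beside 4.16% and 3.89% of all genes. In cortex they were 1 of 23 and 2 of 23, beside 5.09% and 3.3%. In brainstem they were 0 of 26 and 3 of 26, beside 8.35% and 3.24%.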

How the data were processed

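The authors deposited a table of raw read counts per gene for each of the 36 libraries. Per the labels' protocols, RNA was extracted with RNeasy Lipid Tissue Midi kits and libraries were made with TruSeq Stranded mRNA kits. Per the submitters' processing notes, the tools were cutadapt 1.2.1, TopHat2 2.0.9 and HTSeq 0.5.4p3 and the build was GRCm38. Neither the annotation release nor the strand setting is stated there. The 5 lines of the tables that name no gene, which held 24.7 to 42.0% of all counts in a library, were left out.

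Symbols, positions and exon lengths came from GENCODE M21 (37607 of 38924 identifiers had a symbol). Counts were tested with edgeR 4.0.16 in R 4.3.3 (quasi-likelihood, TMM scaling, filterByExpr), with Benjamini-Hochberg adjustment over all genes tested and a threshold of 0.05. Levels per kilobase used the merged exons of M21. Each comparison of genotypes used the 12 libraries of a tissue, and comparisons of tissues used all 36, with the mean of both wild types. Sequences are RefSeq's for GRCm38.p6. The steps were tested on simulated data. The alternatives were DESeq2 1.42.0, limma 3.58.1 with voom, no filter on low counts or one that keeps genes above 1 CPM in 3 or more libraries, relative log expression factors in place of TMM, leaving out each library in turn, fits of only the groups compared, unscaled CPM and the longest transcript for levels, and a replicate block (the replicate number of the labels between genotypes, and line, genotype and title number between tissues). One more, leaving out 4 hypothalamus libraries high in Gh or Omp, was chosen after seeing the data.

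All 10 genes are named. Of the other listed genes, those named are up to 6 per comparison of tissues with the largest change past the threshold, and the highest and lowest level, and for Chat, Slc5a7 and Chrm4 the 5 most correlated genes. Some genes that this rule takes are not reported here. The members and lists were chosen with earlier results of these data known. Same-numbered libraries deviated together in every pair (r over 0.1) only for transgenic and wild-type hypothalamus and for knockout and wild-type brainstem (r from -0.338 to 0.446 over 18 pairs of genotypes), so the replicate number was kept out of the main fits.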

Additional observations from a re-analysis of the deposited data

How the results depend on the processing

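For the 10 genes, all 800 values from alternatives of transgenic or knockout against wild type kept the call of no change past the threshold, and 63 of them changed sign, none of which was called. Of 590 such values for tissues, 574 kept both direction and call, 10 lost the call, 6 gained it and none turned direction. The 10 lost calls were all those of Chat in hypothalamus against cortex: 7 from leaving out 1 library, 1.09 with no filter on low counts (adjusted p = 0.0766), 1.03 with the replicate block (adjusted p = 0.0791) and 0.47 without the 4 libraries high in Gh or Omp (adjusted p = 0.412). The gained calls were those of Chrna7, with the wild types alone in all 3 comparisons and in hypothalamus against cortex also with DESeq2 (0.34, adjusted p = 0.0490) and limma-voom (0.36, adjusted p = 0.000251), and that of Ache without 1 brainstem library. With the replicate block, 0 of the 10 genes were called in any genotype comparison and 8 in hypothalamus against cortex. Leaving out 1 library gave 0 to 1 called genes of the 10 for the wild types of the 2 lines in brainstem and 0 to 1 for the knockout effect in hypothalamus minus cortex. The number of all genes called changed with the tool: transgenic hypothalamus had 1 by edgeR, 7 by DESeq2 and 3 by limma-voom, and the wild types of the 2 lines in brainstem 0 by edgeR and 290 by DESeq2. Depth limits Chat in cortex, with 18 to 52 counts per library, and Chrm1 and Chrm4 in brainstem.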
